A study of Mus musculus with 4 samples.

Results

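NF-kB is the family of transcription factors through which macrophages switch on inflammatory genes after bacterial lipopolysaccharide (LPS), and its transcripts are described here in 4 RNA-seq libraries of mouse bone marrow-derived macrophages. The 10 genes were chosen by name, as the rows of the deposited count table whose Ensembl identifiers pair with the symbols Nfkb1, Nfkb2, Rel, Rela, Relb, Nfkbia, Nfkbib, Nfkbie, Nfkbiz and Bcl3. All 10 were found among the 34745 rows, and all 10 passed the filter on low counts. The macrophages came from C57BL/6 bone marrow, were transfected with a small interfering RNA (siRNA) and were given LPS. By their labels, 2 were given Acly-E14 siRNA (called Acly-E14 1 and 2 here) and 2 control siRNA (control 1 and 2). Both groups shared the strain, the transfection and LPS, so neither the response to LPS nor that to transfection could be measured. The dose and time of LPS, the sequence of either siRNA and whether libraries came from separate cultures or animals are not given in the labels, so each p-value reflects only how far these libraries spread, which may be technical.

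NF-kB works as dimers of subunits that share a DNA-binding and dimerization region, the Rel homology domain. Rela, Rel and Relb encode subunits with an activation domain, whereas Nfkb1 and Nfkb2 encode the precursors p105 and p100, which are processed to p50 and p52. In resting macrophages the classical inhibitors IkB-alpha, IkB-beta and IkB-epsilon (Nfkbia, Nfkbib and Nfkbie) hold the dimers in the cytoplasm. LPS acts through Toll-like receptor signalling and the IkB kinase (IKK) complex, which marks the inhibitors for degradation. Several of these genes are themselves NF-kB targets, so that new IkB-alpha ends the response. IkB-zeta (Nfkbiz) and Bcl-3 (Bcl3) carry the same ankyrin repeats but act in the nucleus, where they bind mainly p50 or p52 dimers on DNA and raise or lower transcription. Counts per gene measure transcripts, and neither the processing of the precursors nor the degradation of the inhibitors can be read from them.

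The promoters of the Rel, Nfkbia, Nfkb2 and Bcl3 genes are shown because they belong to a gene that was lower, a pair that was not called and the gene that was higher in the comparison. Each is the 250 bases before a RefSeq transcription start in GRCm38.p6 (mm10), written 5′ to 3′ on the strand of the gene. Capitals mark matches to the NF-kB consensus of 10 bases on either strand, and overlapping matches run together. The first annotated start is shown for Nfkb2.

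Rel, chr11:23770970-23771219, minus strand: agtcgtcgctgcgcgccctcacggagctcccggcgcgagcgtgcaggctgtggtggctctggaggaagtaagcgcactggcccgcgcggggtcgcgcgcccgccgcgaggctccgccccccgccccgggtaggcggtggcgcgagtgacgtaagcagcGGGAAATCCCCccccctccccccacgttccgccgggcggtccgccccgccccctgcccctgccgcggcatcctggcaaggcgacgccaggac
Nfkbia, chr12:55492648-55492897, minus strand: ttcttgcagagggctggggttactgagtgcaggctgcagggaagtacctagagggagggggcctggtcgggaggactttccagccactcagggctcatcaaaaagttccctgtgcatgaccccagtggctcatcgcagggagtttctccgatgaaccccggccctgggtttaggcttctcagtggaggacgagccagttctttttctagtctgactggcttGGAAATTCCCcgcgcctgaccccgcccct
Nfkb2, chr19:46304487-46304736, plus strand: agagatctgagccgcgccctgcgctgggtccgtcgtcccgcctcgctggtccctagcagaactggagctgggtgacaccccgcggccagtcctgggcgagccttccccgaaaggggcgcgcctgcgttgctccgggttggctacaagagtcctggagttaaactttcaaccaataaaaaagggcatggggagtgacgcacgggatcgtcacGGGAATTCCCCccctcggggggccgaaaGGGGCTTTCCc
Bcl3, chr7:19822756-19823005, minus strand: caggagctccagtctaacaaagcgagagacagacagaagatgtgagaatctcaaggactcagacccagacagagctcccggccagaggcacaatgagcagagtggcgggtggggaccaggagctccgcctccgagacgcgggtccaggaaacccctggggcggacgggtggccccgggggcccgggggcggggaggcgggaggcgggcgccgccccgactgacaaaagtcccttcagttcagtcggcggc

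The Rel promoter held 1 stretch, made of 3 overlapping matches that began 92 bases before the start. The Nfkbia promoter held 1 match, from 29 to 20 bases before the start. The Nfkb2 promoter held 2 stretches, beginning 39 and 11 bases before the start. The Bcl3 window held 0 matches, which says only that these letters are not in this window. RefSeq promoters were at hand for 7 of the 10 genes, not for Nfkb1, Relb and Nfkbiz. A match was present before at least 1 start of 4 of these 7 genes (Rel, Nfkbia, Nfkbie and Nfkb2), against 8.2% of 27025 genes searched in the same way.

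Of the 10 genes, Bcl3 rose, Rel and Nfkbiz fell, and 7 were not called at an adjusted p under 0.05 (edgeR quasi-likelihood test with Benjamini-Hochberg adjustment over the 13108 genes tested). Across all genes tested, 33.2% were called, 17.3% higher and 15.9% lower, so 3 of 10 is close to the background. The changes were also small for this comparison. The median of the absolute log2 fold change was 0.12 over the 10 genes and 0.29 over all genes tested. Among the 3335 genes with a mean of at least 50 CPM (counts scaled to the library size), which holds all 10, that median was 0.24 and 51% were called. With library totals in place of the trimmed-mean (TMM) factors, higher genes made up 65.8% of all calls, against 52% in the main test.

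**Figure D1:**
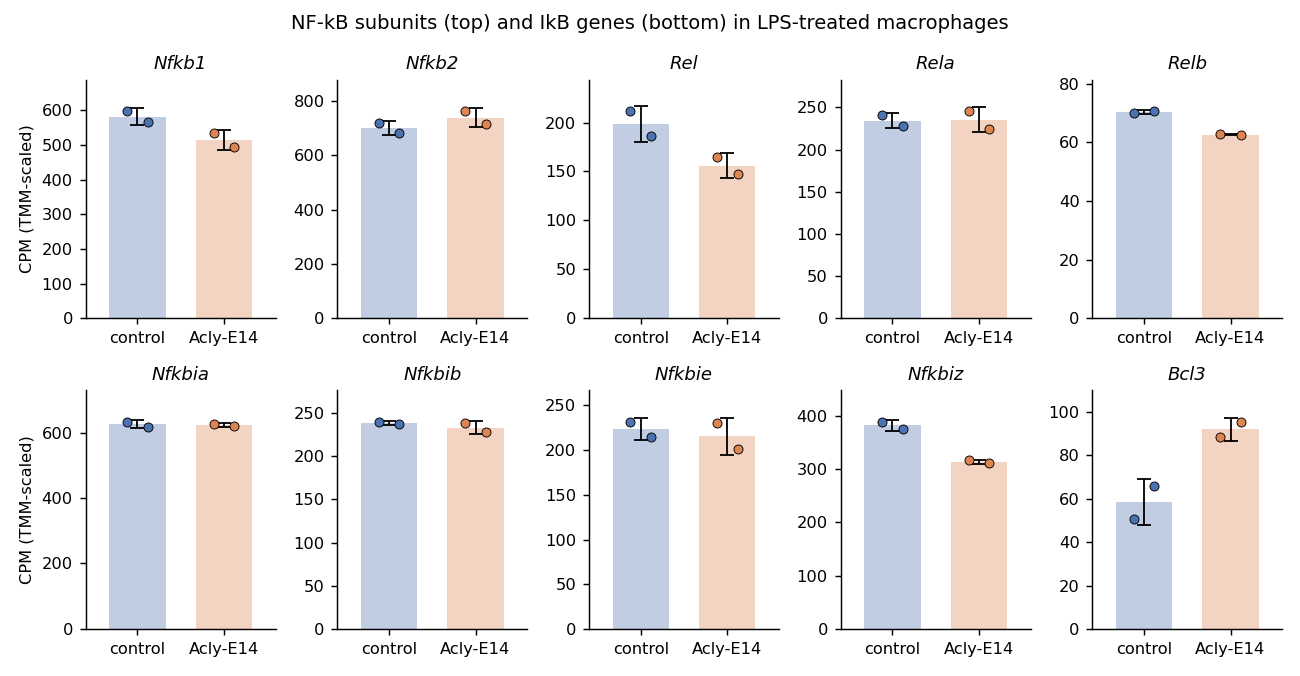
TMM-scaled CPM of the 10 genes in control siRNA (blue) and Acly-E14 siRNA (orange) libraries. Points are libraries, bars the mean and whiskers the SD (n = 2). The groups stood apart upward for Bcl3 and downward for Nfkb1, Rel, Relb and Nfkbiz, and overlapped for the other 5 genes.

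The libraries held 21023197 to 21837806 counts, and each member had between 1025 and 16698 counts per library. The targeted gene Acly, which encodes ATP citrate lyase, was at 158 and 154 CPM in controls and at 118 and 127 CPM under Acly-E14 siRNA (log2 change -0.35, edgeR adjusted p = 0.0086, and 0.00109 to 0.0583 over 11 alternatives, the highest without control 1). All 10 macrophage markers examined were detected, with Lyz2 between 4400 and 4930 CPM. Markers of fibroblasts and stroma were present too and differed between the groups. The 12 markers summed to 984 and 1520 CPM of library totals in controls and to 3430 and 4310 CPM under Acly-E14 siRNA, with 11 of 12 called higher, 0 lower and none at 0. In bulk RNA, a different number of cells of a type and a different amount of RNA per cell cannot be told apart. B cell, T and NK cell, dendritic and granulocyte lists each summed to at most 11.3 CPM in any library, with Cd3e, Cd8a, Ncr1, Siglech and Ngp at 0. Of 5 endothelial genes Cldn5 was at 0, while the list summed to 281 and 276 CPM in controls and to 116 and 114 CPM under Acly-E14 siRNA, mainly from Kdr.

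Bcl3 was the member that changed most. In mm10 (GENCODE M21) the gene spans chr7:19808462-19822770 and is read from the minus strand. Its level was 50.9 and 65.8 CPM in controls and 88.3 and 95.6 CPM under Acly-E14 siRNA, or 58.4 ± 10.5 and 92.0 ± 5.22 (SD, n = 2). Both Acly-E14 siRNA libraries were above both controls, and the controls differed from each other more than the treated libraries did. The rise was 1.57-fold, with a 95% interval of 1.27 to 1.95 (log2 0.66, SE 0.126, edgeR adjusted p = 0.0124). Of all genes tested, 21.5% had a larger absolute log2 change. The call was made under 10 of 11 alternatives, with an adjusted p of 9.29e-05 to 0.0571, and was lost without Acly-E14 2 (log2 0.60, adjusted p = 0.0571). The log2 change was 0.85 without control 2 and 0.48 without control 1. The 4 libraries had the same order for Bcl3 as for the summed fibroblast and stroma markers given above. For Rel, Nfkbiz and Nfkb1 they had exactly the reverse order. Relb, also lower without overlap, did not follow it, with controls at 69.8 and 70.7 CPM. How many of all genes tested have either order was not counted, and 70.6% of them stood apart between the groups. The part of those markers in the results of these members was not tested. An annotated antisense gene, Gm16175, shares 161 exon bases with Bcl3 and had 0 counts in every library.

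Nfkbiz, the other nuclear IkB gene, went the opposite way. It was at 389 and 375 CPM in controls and at 316 and 311 CPM under Acly-E14 siRNA. The groups did not overlap, and the libraries within a group lay close together. The log2 change was -0.28 (SE 0.052, edgeR adjusted p = 0.0105), a fold of 0.82 with a 95% interval of 0.75 to 0.90. Over the alternatives the adjusted p ranged from 0.00167 to 0.073, and the call was lost without control 1 (0.073) or Acly-E14 2 (0.0559). Because a ratio of 2 genes within a library does not depend on how libraries are scaled, the pair was also compared directly. Bcl3 transcripts per length were 0.258 and 0.346 of those of Nfkbiz in controls and 0.551 and 0.606 under Acly-E14 siRNA. The ratio was thus 1.93-fold higher. As Bcl3 already stood apart upward and Nfkbiz downward, the ratio had to separate the groups and adds no further evidence. An exact two-sided permutation test gave p = 0.333, the smallest that 2 libraries against 2 allow.

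The classical IkB genes were not called. Nfkbia, the gene of IkB-alpha, was at 634 and 618 CPM in controls and at 628 and 620 CPM under Acly-E14 siRNA. The groups overlapped, and the 95% interval of the ratio ran from 0.91 to 1.09 (log2 -0.01, edgeR adjusted p = 0.942). Nfkbib, the gene of IkB-beta, was at 240 and 237 CPM against 238 and 228 CPM, with an interval of 0.89 to 1.07. Nfkbie, the gene of IkB-epsilon, was at 232 and 215 CPM against 230 and 201 CPM, with an interval of 0.84 to 1.11. For all 3, the groups overlapped and the sign of the small difference turned with library totals in place of TMM factors (log2 0.086, 0.058 and 0.038), still with no call. Nfkbib shares 42 exon bases with Sirt2 and 314 with Ccer2 on the opposite strand, and whether counting used strand is not stated. Ccer2 had 0 counts, whereas Sirt2 had 1665 and 2091 in controls and 2079 and 2161 under Acly-E14 siRNA. Within libraries, Nfkbiz stood at 0.135 and 0.134 of Nfkbia per length in controls and at 0.111 and 0.111 under Acly-E14 siRNA.

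**Figure D2:**
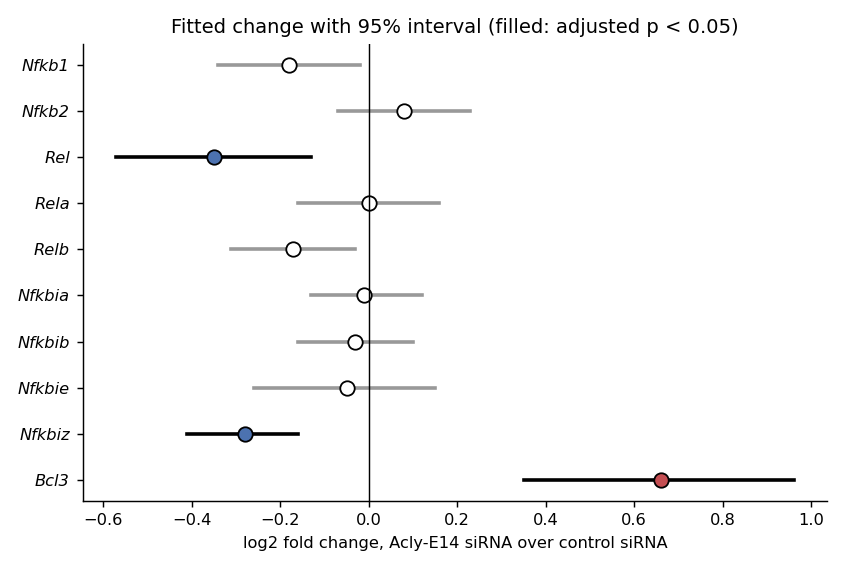
Fitted log2 fold change of Acly-E14 siRNA over control siRNA for the 10 genes, with 95% intervals. Filled points passed an adjusted p under 0.05: Bcl3 at 0.66, Nfkbiz at -0.28 and Rel at -0.35, while the interval of Nfkbia runs from -0.13 to 0.12.

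Among the subunits, Rel fell and the others were not called. Rel encodes c-Rel, an activating subunit, and spans chr11:23736847-23770970, minus strand. It was at 212 and 186 CPM in controls and at 165 and 147 CPM under Acly-E14 siRNA. The groups did not overlap, although the lower control was nearer to the higher treated library than to the other control. The log2 change of Rel was -0.35 (SE 0.090, edgeR adjusted p = 0.0301), a fold of 0.78 with a 95% interval of 0.67 to 0.91. This call held under 5 of 11 alternatives, with adjusted p from 0.00408 to 0.144. It was lost without control 1 (0.144) or Acly-E14 2 (0.130), with all genes kept (0.0654), with unscaled totals (0.0552) and with limma on log2(FPKM + 1) (0.0711) or log2(FPKM + 0.1) (0.0707), where FPKM is fragments scaled to gene length and library size. As a scaling-free measure, Rel over Rela was 0.320 and 0.296 in controls and 0.245 and 0.237 under Acly-E14 siRNA per length. The groups did not overlap, and the exact two-sided permutation p was again 0.333.

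Rela, which encodes the activating subunit p65, was at 241 and 228 CPM in controls and at 246 and 225 CPM under Acly-E14 siRNA. The treated libraries lay on either side of the controls, and the 95% interval of the ratio was 0.90 to 1.12 (edgeR adjusted p = 0.972). Relb, the activating partner of p52, was at 69.8 and 70.7 CPM in controls and at 62.7 and 62.4 CPM under Acly-E14 siRNA. Its groups did not overlap, but the log2 change of -0.17 was not called (edgeR adjusted p = 0.0728). Nfkb1, the gene of p105 and p50, was at 598 and 565 CPM against 534 and 494 CPM, likewise without overlap and without a call (log2 -0.18, edgeR adjusted p = 0.081). Nfkb2, the gene of p100 and p52, was at 719 and 683 CPM against 764 and 714 CPM. Here the groups overlapped (log2 0.08, edgeR adjusted p = 0.377). With library totals alone Nfkb2 was called higher at a log2 change of 0.17, with an edgeR adjusted p that rounds to 0.05. At the same log2 change it was not called with limma (limma adjusted p = 0.0527 and 0.0528). On the opposite strand, Nfkb2 shares 299 exon bases with Psd, which had 13 counts or fewer per library, and 531 with AC114539.1.

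Counting groups without overlap in either direction, 1 member was higher and 4 were lower under Acly-E14 siRNA. Over all genes tested the groups stood apart upward for 35.3% and downward for 35.3%, and for 70.6% in either direction, so 4 of 10 lower is near the background and 1 of 10 higher is below it. 

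Per length, Nfkbia was the most abundant of the 10 transcripts. With the gene lengths implied by the deposited FPKM, it was at 384 ± 0.96 FPKM in controls (SD, n = 2), followed by Nfkb2 at 201 ± 4.13. Nfkbie at 89.3 ± 3.45, Rela at 83.7 ± 1.98 and Nfkbib at 77.7 ± 0.432 came next. The control libraries of these 3 genes did not overlap, whereas those of Nfkbie and Rela under Acly-E14 siRNA did (97.4 and 86.0 against 92.7 and 86.2 FPKM). Nfkbiz was at 51.6 ± 0.508, Nfkb1 at 34.7 ± 0.843 and Rel at 25.8 ± 2.01. The lowest were Bcl3 at 15.6 ± 3.05 and Relb at 12.3 ± 0.296 FPKM. In Acly-E14 siRNA libraries Bcl3, at 26.1 ± 1.72 FPKM, moved above Rel at 21.6 ± 1.59, and the other 8 genes kept their ranks.

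This order rests in part on the length used, and the further lengths were chosen after seeing the data. The length implied by the deposited FPKM was 16227 bases for Nfkb1, whereas its merged exons in GENCODE M21 cover 12061 bases and its principal transcript 4117 bases. For Relb the 3 lengths were 5529, 3885 and 2209 bases. For Rel, whose annotation has 1 transcript, all 3 were 7466 bases. Per base of principal transcript, Nfkb1 was the third in controls at 137 ± 3.32 FPKM, and Rel was last at 25.8 ± 2.01. The mean of Bcl3 in controls, 30.6 ± 5.99 FPKM, was then already above that of Rel. The move of Bcl3 above Rel given above thus depends on the length used. Nfkbia and Nfkb2 held the first and second place with all 3 lengths. Fold changes between groups do not depend on the length.

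**Figure D3:**
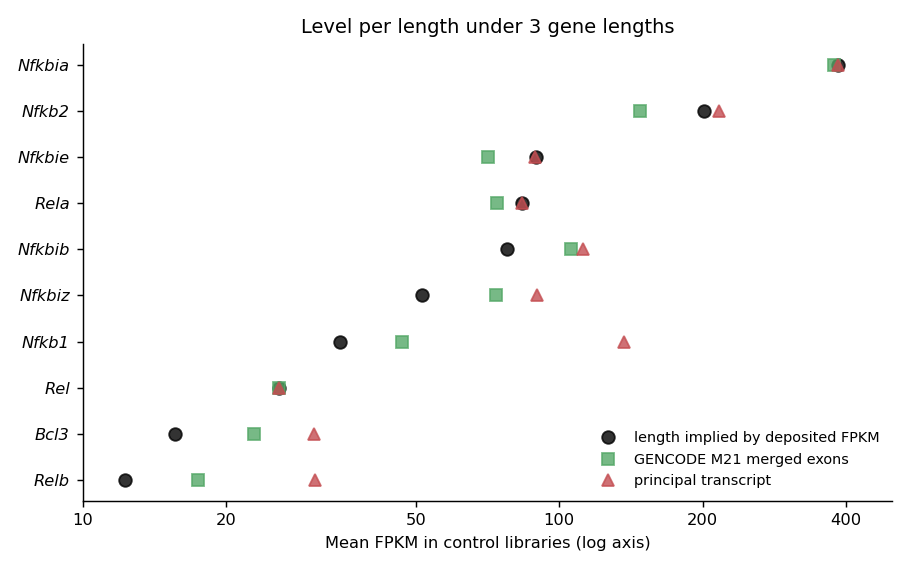
Mean FPKM of the 10 genes in control libraries on a log axis, with 3 gene lengths: implied by the deposited FPKM (circles), merged exons of GENCODE M21 (squares) and principal transcript (triangles). Nfkb1 moves from 34.7 to 137 FPKM, while Rel stays at 25.8.

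The mix of subunit transcripts differed slightly between the groups. As a share of the summed FPKM of the 5 subunit genes, Rel was 7.50% and 6.95% in controls and 5.78% and 5.53% under Acly-E14 siRNA. Nfkb1 was 9.71% in each control and 8.61% and 8.56% under Acly-E14 siRNA. The share of Nfkb2 was 56.0% and 56.3% in controls and 59.0% and 59.4% under Acly-E14 siRNA. Each of these shares separated the groups, with the smallest permutation p the design allows (exact, two-sided, 0.333). The share of Relb, at 3.33% and 3.57% against 2.96% and 3.17%, also did, but overlapped for counts not divided by length. The share of Rela overlapped between groups at 23.4% to 23.6%. The 5 shares add up to a whole and so do not vary independently, and in CPM 70.6% of all genes tested stood apart. With principal transcript lengths, a choice made after seeing the data, the shares of Rel, Nfkb1 and Nfkb2 differed in the same direction, and that of Rela also separated the groups, at 17.0% in each control against 17.6% and 17.4%. The ratio of Nfkb1 to Nfkb2, both precursor genes, was 0.173 in each control and 0.146 and 0.144 under Acly-E14 siRNA.

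Per length, the ratio of IkB to subunit transcripts did not separate the groups. It is not a balance of inhibitors to active subunits. The 5 IkB genes include the nuclear Nfkbiz and Bcl3, and the 5 subunit genes include those of the precursors p105 and p100. The 5 IkB genes together held 1.71 and 1.76 times the FPKM of the 5 subunit genes in controls and 1.68 and 1.75 times under Acly-E14 siRNA (exact two-sided permutation p = 0.667). With the 3 classical IkB genes alone, the mean ratio was 1.54 in controls and 1.53 under Acly-E14 siRNA, with overlap; from counts not divided by length the groups stood apart, at 0.601 and 0.617 against 0.618 and 0.638.

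**Figure D4:**
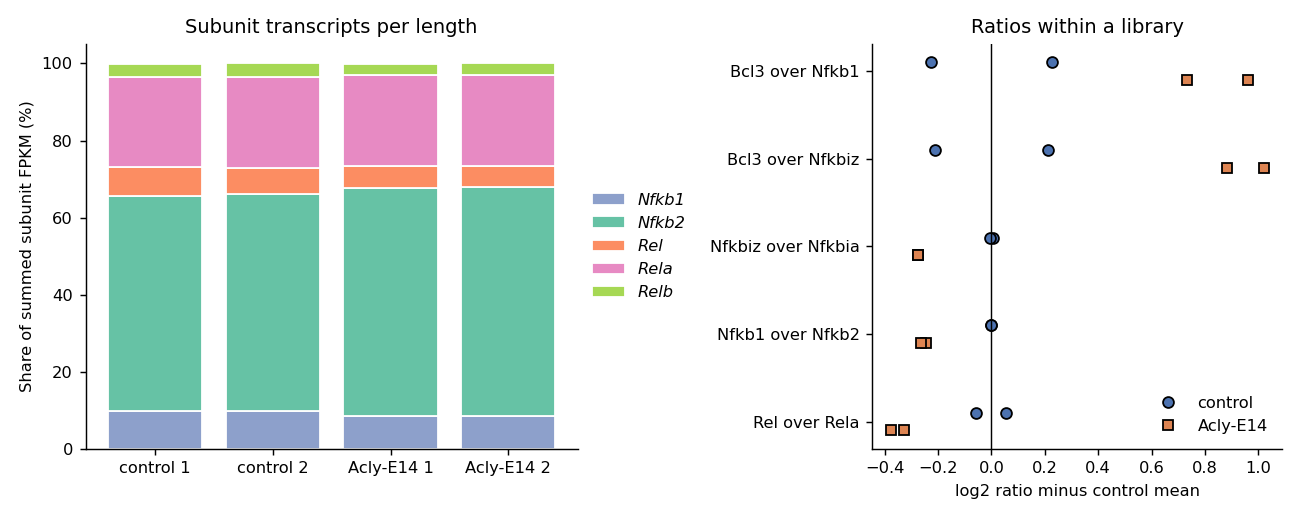
Left, share of each subunit gene in the summed FPKM of the 5 subunit genes, by library. Right, log2 ratios of FPKM between pairs of members within each library, set to the control mean (circles control, squares Acly-E14 siRNA). Bcl3 over Nfkbiz is 0.95 higher and Rel over Rela 0.35 lower on the log2 scale.

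By distance of centred log2 CPM over the 4 libraries, the genes most like Bcl3 among 7600 compared were Mr1 (distance 0.03), Ext2 (0.039) and Neto2 (0.046), with log2 changes of 0.67, 0.64 and 0.64. Those most like Rel were Tmem19 (0.012), Iah1 (0.03) and Ttf1 (0.032), with log2 changes of -0.36, -0.34 and -0.37. With 4 libraries such a distance describes little beyond the group difference and the gap between controls.

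Other genes that carry the signal to NF-kB or restrain it changed in both directions. Over all genes tested, 15.9% were lower and 17.3% higher, with a median log2 change of 0.003. Among those with a mean of at least 50 CPM, a level that not all regulators reached, 51% were called. Of 49 tested regulators from 5 lists, 15 were lower, 5 higher and 29 not called, with a median log2 change of -0.10. Fewer were lower without control 1 (5), control 2 (9) or Acly-E14 2 (5), and 3 were higher without either control and 2 without either Acly-E14 library. With library totals in place of TMM factors 9 were higher and 10 lower, and with limma 8 were higher and 9 lower. The further IkB genes Nfkbid (IkB-NS, log2 -0.25, edgeR adjusted p = 0.155) and Nfkbil1 (log2 0.04, 0.784) were not called.

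Of 11 genes of the IKK complex and related kinases, 4 were lower and 1 higher, against 15.9% and 17.3% of all genes tested. Tab2, which encodes an adaptor of the kinase TAK1, fell from 223 and 225 to 146 and 129 CPM (log2 -0.70, edgeR adjusted p = 0.00215), and was called under all 11 alternatives. Tbk1, an IKK-related kinase gene, fell by 0.41 on the log2 scale (edgeR adjusted p = 0.00667, and 5.68e-05 to 0.0506 over the alternatives, the highest without control 1). Map3k14, the gene of NIK, the kinase that starts the processing of p100, rose from 6.76 and 7.34 to 10.5 and 11.1 CPM. Its log2 change was 0.61 (edgeR adjusted p = 0.0157, and 0.0123 to 0.0919 over the alternatives), and the call was lost without control 1 (0.0678), Acly-E14 1 (0.0553) or Acly-E14 2 (0.0919). Chuk, the gene of the catalytic subunit IKK-alpha, changed by -0.30 on the log2 scale (edgeR adjusted p = 0.0167, and 0.0129 to 0.0945 over the alternatives), a call lost without any 1 of the 4 libraries (0.0537 to 0.0883), with library totals alone (0.0611) and with limma. The other catalytic subunit gene, Ikbkb, set beside Chuk for its role, was at 75.5 and 71.0 CPM against 73.7 and 68.5 CPM and was not called, nor was the scaffold gene Ikbkg.

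Of 16 ubiquitin ligase and adaptor genes, 6 were lower and 0 higher, against 15.9% and 17.3% of all genes tested. The lower count was 2 without control 1, 3 without control 2, 1 without Acly-E14 2, and 3 with library totals or limma. Peli1, which encodes the ligase Pellino-1, fell from 455 and 429 to 337 and 307 CPM (log2 -0.46, edgeR adjusted p = 0.00557) and was called under all 11 alternatives. Traf5 (log2 -0.47), Fbxw11 (log2 -0.31), which encodes an F-box protein that recognizes marked IkB, and Traf2 (log2 -0.32) were lower as well. The Traf5 call was lost without control 1 (edgeR adjusted p = 0.0534) or Acly-E14 2 (0.0587), and that of Fbxw11 without control 1 (0.0783), control 2 (0.0544) or Acly-E14 2 (0.0688). The Traf2 call was lost under 7 of 11 alternatives, with an adjusted p of up to 0.125 (without Acly-E14 2). Genes whose products keep NIK low were mixed, and all but Traf2 were named after their values were seen. Traf3 and Birc3 were not called, at log2 0.16 and 0.07. Traf2, given above, and Birc2 (log2 -0.26, edgeR adjusted p = 0.0274) were lower. The Birc2 call was lost under 8 of 11 alternatives.

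Of 12 deubiquitinase and negative regulator genes, 4 were lower and 2 higher, against 15.9% and 17.3% of all genes tested. Tnip2, which encodes a partner of the A20 deubiquitinase, rose from 22.8 and 21.2 to 37.4 and 35.7 CPM (1.66-fold, edgeR adjusted p = 0.00296). Tax1bp1, another A20 partner gene, changed by -0.36 on the log2 scale (edgeR adjusted p = 0.00499). Both were called under all 11 alternatives. Zc3h12a, the gene of the RNase Regnase-1 (log2 -0.35), and Cyld, a deubiquitinase gene (log2 -0.36), also fell. The Zc3h12a call was lost without control 1 (edgeR adjusted p = 0.0609), and that of Cyld without control 1 (0.0592) or Acly-E14 2 (0.0618). Tnfaip3, the gene of A20 and a feedback target of NF-kB, was named after its values were seen. It went from 866 and 649 to 501 and 440 CPM (log2 -0.69, edgeR adjusted p = 0.016), a call lost without Acly-E14 2 (0.0722, the highest of 11 alternatives, whose lowest was 1.18e-05). Nfkbia, the other textbook feedback inhibitor, overlapped between the groups in the same libraries.

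The non-canonical pathway, in which receptors of the tumour necrosis factor family lead to p52 and RelB dimers, gave 2 higher and 1 lower of 8 tested genes. Over all genes tested these shares were 17.3% and 15.9%. Tnfsf14, the gene of the ligand LIGHT, rose from 1.14 and 1.78 to 5.58 and 5.80 CPM (3.87-fold, edgeR adjusted p = 0.00392). Tnfrsf11a, the gene of RANK, had a log2 change of -0.43 and Tnfrsf12a of 0.22. These calls (edgeR adjusted p = 0.0241 and 0.045) were lost under 7 and 6 of 11 alternatives. Both were lost without any 1 of the 4 libraries and with DESeq2 (DESeq2 adjusted p = 0.0612 and 0.170). That of Tnfrsf11a was also lost with limma (limma adjusted p = 0.0657 and 0.0704). That of Tnfrsf12a was also lost with no filter on low counts (edgeR adjusted p = 0.0834). Cd40 and Ltbr, receptors that signal through this route and likewise named afterwards, were not called, at log2 0.10 and 0.04.

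Among 36 target genes of NF-kB, 14 rose, 7 fell and 15 were not called; their median log2 change was 0.06. Over all genes tested 17.3% were called higher and 15.9% lower, and 51% were called in either direction among those with a mean of at least 50 CPM. Without either control, 4 were lower. The calls of smallest p were the rises of Il1a, Il1b, Ier2 and Csf3, between 2.16-fold and 5.90-fold. Falls in the same list, named after their values were seen, included Tnf, the gene of tumour necrosis factor, from 3450 and 2920 to 1500 and 1270 CPM (log2 -1.20, edgeR adjusted p = 0.00193), Plau (log2 -0.74) and Tnfrsf1b (log2 -0.72), each called under all 11 alternatives. Among 4 genes known to need IkB-zeta in macrophages, the direction was mixed while Nfkbiz itself was lower. Il6 fell (log2 -0.74), Il12b rose (log2 0.94), and Lcn2 was not called (log2 0.12). Csf2 rose from 0.894 and 0.327 to 2.10 and 1.96 CPM (edgeR adjusted p = 0.0316), from only 18 and 7 to 46 and 43 counts. Its call was lost under 5 of 11 alternatives. These were DESeq2 (DESeq2 adjusted p = 0.0504), no filter on low counts (edgeR adjusted p = 0.0653), and leaving out control 2 or either Acly-E14 siRNA library. Beside these counts, 11 of 12 stromal and fibroblast markers were higher, with a median log2 change of 1.48, and macrophage markers were mixed, with 3 of 10 higher and 4 lower. Their part in the counts of regulators and targets was not tested.

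**Figure D5:**
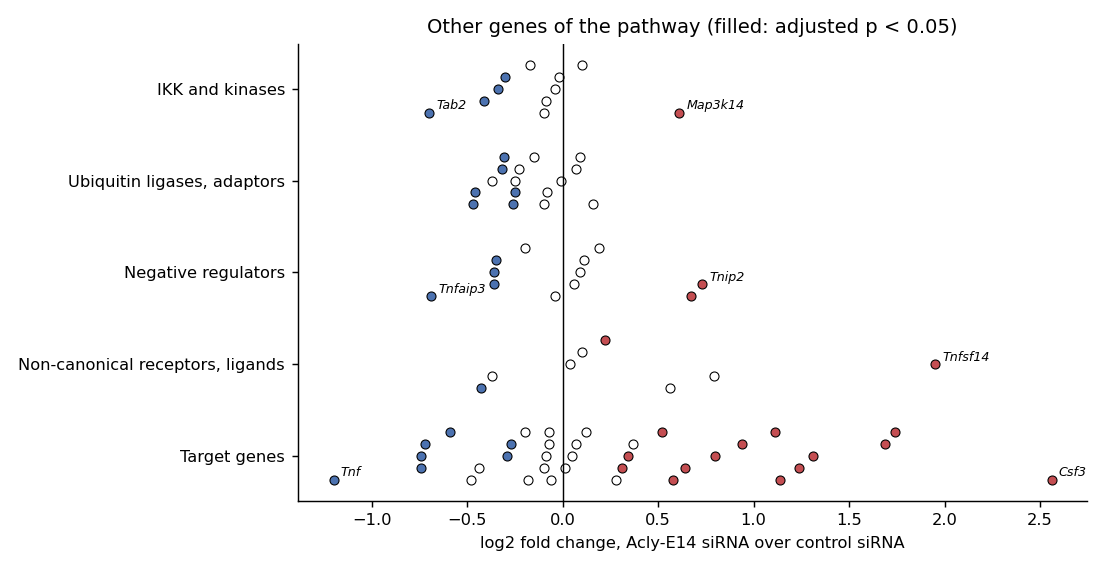
Log2 fold changes of Acly-E14 siRNA over control siRNA for the other pathway genes, by list; points are genes, spread vertically for legibility. Filled points passed an adjusted p under 0.05 (red higher, blue lower): 4 lower and 1 higher of 11 kinase genes, 6 and 0 of 16 ligase and adaptor genes, 4 and 2 of 12 negative regulators, 1 and 2 of 8 non-canonical genes, and 7 and 14 of 36 target genes.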

How the data were processed

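The deposited table holds whole-number counts per Ensembl gene, with no normalization per the file headers, and FPKM values that the authors computed. Per the submitters' processing notes, HISAT2, StringTie 1.3.0, edgeR and the build mm10 were used; which step each served, how reads were assigned to genes and whether strand was used is not given in the sources used here. Of 49103 FPKM values above 0, 49103 matched the count, the column total and a gene length derived from the same values (relative tolerance 0.001). The value columns included 1 that was not used, as its name carries no replicate number, and FPKM was recomputed from the counts for all 4 libraries.

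Group differences in counts were fitted in R 4.3.3 by edgeR 4.0.16 (filterByExpr, minimum count 10, TMM factors, quasi-likelihood F test, no covariates), adjusted over all genes tested. SE and 95% intervals are those implied by the F statistic. Ratios within a library were tested by exact permutation (scipy 1.17.1). The test was checked on simulated counts of 13108 genes with dispersions that varied between genes, of which 200 were changed. More of the calls were false than the adjusted p threshold allows, with 37 unchanged genes called. Of the changes put in, 28% at log2 0.5 and 72% at log2 1 were called. In these data 4354 genes were called, so neither the share of false calls nor the share of recovered changes can be carried over. A call may still be weaker evidence than its adjusted p states, and a missing call does not show that a gene did not change. Named are all members, Acly, up to 4 called genes of smallest p per list, the 3 genes most alike to the largest called rise and fall, and genes set beside a member. The members and lists were chosen with earlier results of these data known. Alternatives, which included limma 3.58.1 and DESeq2 1.42.0, are in the closing section. Principal transcripts are those marked by APPRIS in GENCODE M21. Symbols matched 34267 identifiers.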

Additional observations from a re-analysis of the deposited data

How the results depend on the processing

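Under 11 alternatives, the log2 changes of Bcl3, Nfkbiz, Rel, Relb, Nfkb1 and Nfkb2 kept their direction, and 83 of 110 member values kept both direction and side of the threshold. Leaving out each library in turn, log2 changes ranged from 0.48 to 0.85 for Bcl3, -0.31 to -0.26 for Nfkbiz, -0.45 to -0.26 for Rel, -0.057 to 0.064 for Rela, -0.026 to 0.008 for Nfkbia and -0.15 to 0.042 for Nfkbie. Members called higher then numbered 0 to 1 and lower 0 to 2, regulators 2 to 3 higher and 5 to 11 lower, and targets 11 to 13 higher and 4 to 9 lower. With library totals alone, Rel was at -0.26, Nfkbia at 0.086, Nfkbib at 0.058 and Nfkbie at 0.038. Nfkb2 was at 0.17, called at an edgeR adjusted p that rounds to 0.05. There, 2 members were higher and 1 lower, and 9 regulators were higher. With limma on log2(FPKM + 1), Rel was at -0.25, Nfkbia at 0.085, Nfkbib at 0.057 and Nfkbie at 0.036, with 1 member lower and 8 regulators higher and 9 lower. With log2(FPKM + 0.1), Rel was at -0.26, Nfkbia at 0.086, Nfkbib at 0.058 and Nfkbie at 0.036, again with 1 member lower and 8 regulators higher and 9 lower. Without a filter on low counts, Rel was at -0.36 (not called) and Rela at -0.003, with 1 member lower and 3 regulators higher. With DESeq2, Rela was at -0.002 and 3 regulators were higher. The FPKM given to limma were scaled to library totals without TMM factors, so both limma settings share the scaling of library totals alone. The TMM factors were 0.958 and 0.980 in controls and 1.026 and 1.039 under Acly-E14 siRNA. Over all genes, the median log2 change was 0.0938 with library totals alone, against 0.003 in the main test. The cause of the shifts of single genes was not tested. The log2 difference of the IkB to subunit ratio was -0.016, against 0.017 for counts not divided by length, 0.026 for principal transcript lengths (chosen after seeing the data) and -0.048 to 0.015 without single libraries.

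The groups share replicate numbers, but nothing in the labels pairs them (correlation of deviations 0.144 for number 1). With the replicate number as a block, Nfkb1 was called lower (log2 -0.18, edgeR adjusted p = 0.0176), and over all genes 2514 were called higher and 2382 lower, against 2264 and 2090. Over all genes, calls numbered 1175 higher and 982 lower with control 1 left out, 1815 and 1400 with control 2 left out, 1477 and 1387 with Acly-E14 1 left out, and 1045 and 1043 with Acly-E14 2 left out. Lower calls numbered 1446 with library totals and 1389 and 1383 with limma. The lowest count of a member was 1025, and how far depth limits the smaller differences was not tested. Leaving out a library leaves 1 sample in a group, which is then assumed to vary like the other group.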
